A study of Mus musculus with 55 samples.

Results

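The fatty acid desaturases, elongases and lipogenic genes described here are 10 of the 18194 mouse genes that had a probe set of their own on the array. The members were given as a list: Scd1, Scd2, Fads1, Fads2, Elovl1, Elovl5, Elovl6, Srebf1, Fasn and Me1. Each was read from the probe set that carried its symbol alone and had the highest mean over 55 arrays, out of 23 such probe sets for the 10 genes. Of the 10, 8 exceeded a linear signal of 20 in at least 3 arrays and were tested with all 8238 genes that did so. Fads2 and Elovl6 stayed under that minimum in all 55 arrays.

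Total RNA from the hearts of 55 male Sv129 mice was hybridised to Affymetrix arrays, 1 heart for each array. The study asked how the heart responds to single dietary triglycerides and to a PPARα agonist, with and without the receptor. All mice ate a modified AIN76A diet with olive oil in place of corn oil before the test, were fasted for 4 h, received 400 µL by gavage and were killed 6 h later. The labels give the age as 9 to 12 weeks in one place and 2 to 6 months in another. The PPARα-/- hearts (129S4/SvJae, called KO here) numbered 30, with 5 each after triolein, trilinolein, trilinolenin, tridocosahexaenoin, the agonist Wy14643 and control. The wild-type hearts (129S1/SvImJ, called WT) numbered 25, with 4 after triolein, 5 after trilinolein, 4 after trilinolenin, 5 after tridocosahexaenoin, 4 after Wy14643 and 3 after control. Wy14643 was given at 10 mg/mL in 0.5% carboxymethyl cellulose, and the control gavage was that vehicle, although the treatment label of the control arrays reads none. The labels name no cellulose for the oils, whose control was the same vehicle gavage. The acyl chains of the 4 oils are those of oleic, linoleic, alpha-linolenic and docosahexaenoic acid, with 1, 2, 3 and 6 double bonds. Docosahexaenoic acid has 22 carbons and the others 18. In comparisons with that oil, double bonds and chain length cannot be told apart. The substrain differs with the genotype, so the 2 cannot be told apart.

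Stearoyl-CoA desaturases place the first double bond into saturated fatty acids, and the fatty acid desaturases Fads1 and Fads2 place further ones into dietary polyunsaturated fatty acids, in turn with the elongases. Fatty acid synthase builds palmitate with NADPH that malic enzyme helps to supply, and the transcription factor SREBP-1, encoded by Srebf1, drives many of these genes. In rodent liver, polyunsaturated fatty acids are known to lower SREBP-1 activity and Scd1 transcripts, and PPARα agonists are known to raise Me1, Scd1 and the desaturases.

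The values were log2 signals as deposited, and 1 unit is a doubling. A gene is said to have risen or fallen where limma, fitted over all 55 arrays, gave an adjusted p under 0.05 over all tested genes, and changes are given ± SE. The p-values measure the spread between hearts, and the number of arrays limits the precision. Signals were not compared between probe sets. Statements that groups did not overlap describe the signals of the named hearts. The share of all tested genes with such separation was not counted. In groups this small it can arise by chance, so it adds no weight to a change that was not called. In whole hearts, fewer cells of a type and less RNA in each cell cannot be told apart. All 8 cardiomyocyte markers were bright. The knocked-out gene itself, Ppara, had log2 differences between KO and WT hearts of −1.09 to −0.50 over the 6 gavages, all called, and the place of its probe set relative to the disrupted exons was not examined.

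Scd2 fell after trilinolein and after trilinolenin in both genotypes, by 1.82-fold to 2.07-fold. No other member was called for any of the 10 treatments against control within a genotype, while Elovl5 and Fads1 had calls in averages over both genotypes. Across genotypes, Me1 stood apart: it was lower in KO hearts under all 6 gavages, and none of its 30 KO signals reached the lowest WT signal. No member was called for Wy14643 against control in either genotype.

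Scd2 encodes a stearoyl-CoA desaturase (Entrez Gene 20250). In KO hearts its log2 signals were 7.33, 8.56, 7.93, 7.05 and 8.05 after trilinolein and 7.54, 7.59, 7.87, 7.89 and 7.12 after trilinolenin, against 8.36, 8.60, 8.89, 9.03 and 8.38 after control. All 5 trilinolenin hearts lay below all 5 controls, whereas the second trilinolein heart lay within the control range. The log2 change was −0.87 ± 0.18 for trilinolein (adjusted p = 0.00312) and −1.05 ± 0.18 for trilinolenin (adjusted p = 0.000103). Of all tested genes, 4.32% and 11.9% were called in these comparisons. Leaving out any array of the groups compared kept both calls, with changes between −1.06 and −0.68 for trilinolein. In a fit of the KO trilinolein and control hearts alone, the trilinolein adjusted p was 0.0979.

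The same probe set in WT hearts gave 7.37, 7.37, 7.25, 7.09 and 6.99 after trilinolein and 7.39, 7.42, 7.14 and 7.13 after trilinolenin, against 8.28, 8.04 and 8.12 after control. Neither oil group overlapped the controls. The log2 change was −0.94 ± 0.20 for trilinolein (adjusted p = 0.0134) and −0.88 ± 0.21 for trilinolenin (adjusted p = 0.0147), where 1.25% and 3.41% of tested genes were called. These calls rested on the 3 WT controls. Without WT control replicate 1 the adjusted p was 0.0604 for trilinolein and 0.068 for trilinolenin. It was 0.0636 for trilinolein without replicate 3 and 0.0606 for trilinolenin without replicate 2, with log2 changes of −0.95 and −0.93. With the probe sets of each gene averaged, the changes were −0.74 and −0.67 (adjusted p = 0.0721 and 0.0903).

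Markers of other cell types were called in the same comparisons. Of 6 fibroblast markers 2 were lower in KO hearts, Col1a1 by −0.78 ± 0.20 and Col3a1 by −0.82 ± 0.20 after trilinolein, and by −0.72 ± 0.20 and −0.87 ± 0.20 after trilinolenin. The endothelial marker Kdr was lower after trilinolenin, by −0.61 ± 0.20 in KO hearts and −0.85 ± 0.24 in WT hearts, while Flt1 was higher after trilinolein in KO hearts by 0.31 ± 0.09. The macrophage marker Cd163 was higher in KO hearts by 0.60 ± 0.18 after trilinolein and 0.69 ± 0.18 after trilinolenin. Lipe, a lipase listed among the adipocyte markers, was higher by 0.58 and 0.48 in KO hearts and by 0.64 and 0.73 in WT hearts after the same oils. In KO hearts Fabp4 was also higher after trilinolenin, by 0.28 ± 0.07.

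The summed linear signals of the fibroblast list overlapped, at 5602 to 6111 after trilinolein and 5569 to 6346 after trilinolenin, against 5693 to 6226 after control in KO hearts. In WT hearts they were 5446 to 6722 and 5507 to 7482, against 6146 to 6392. The sums of the adipocyte list were higher after these oils. A linear sum follows the brightest genes. Adipoq and Car3 reached at most 4.66 and 9.13 on the log2 scale and were a small part of these sums. In KO hearts they were 25820 to 27940 after trilinolein and 26300 to 30520 after trilinolenin, wholly above the controls at 23960 to 24970. In WT hearts the trilinolein sums of 22940 to 24220 lay above the controls at 21900 to 22520. The WT trilinolenin sums of 22460 to 25400 overlapped those controls. The atrial list varied widely, from 5083 to 19660 in KO hearts and from 4740 to 16790 in WT hearts. It was 14360 to 16120 in the WT triolein hearts, against 6384 to 9313 in the WT controls, without overlap. The part of these markers in the Scd2 results was not tested.

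The oils with the fewest and the most double bonds gave smaller changes of Scd2 that were not called. After triolein the signals were 8.59, 8.10, 7.98, 8.36 and 8.52 in KO hearts, and 7.83, 8.03, 7.56 and 7.75 in WT hearts. The log2 change against control was −0.34 ± 0.18 in KO hearts (adjusted p = 0.361, 1.15% of genes called) and −0.36 ± 0.21 in WT hearts (adjusted p = 0.824, 0.0728% called). All 4 WT triolein hearts lay below the 3 WT controls, while the KO groups overlapped. After tridocosahexaenoin the signals were 7.95, 8.33, 8.00, 8.01 and 8.10 in KO hearts, and 7.39, 7.53, 7.82, 7.93 and 7.26 in WT hearts. Each tridocosahexaenoin group lay wholly below its control. The log2 change was −0.58 ± 0.18 in KO hearts (adjusted p = 0.0569, 3.54% called). In WT hearts it was −0.56 ± 0.20 (adjusted p = 0.148, 1.86% called), and both missed the threshold. The KO value crossed it without KO control replicate 5 (adjusted p = 0.0381) or without KO tridocosahexaenoin replicate 2 (adjusted p = 0.0498). It also did so with the filter at 100 (adjusted p = 0.0476), repeated quantile normalisation (adjusted p = 0.0447) and array weights (adjusted p = 0.0443).

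After Wy14643, Scd2 read 8.06, 8.16, 8.52, 8.63 and 8.29 in KO hearts, and 8.15, 7.85, 7.88 and 8.25 in WT hearts. Both groups overlapped their controls, with a log2 change of −0.32 (95% interval −0.68 to 0.03) in KO hearts and −0.11 (−0.54 to 0.32) in WT hearts. Few genes of any kind were called for the agonist: 0.0728% in KO hearts and 0.0607% in WT hearts. The 8 tested members had changes of −0.43 to 0.04 in KO hearts and of −0.19 to 0.16 in WT hearts.

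**Figure D1:**
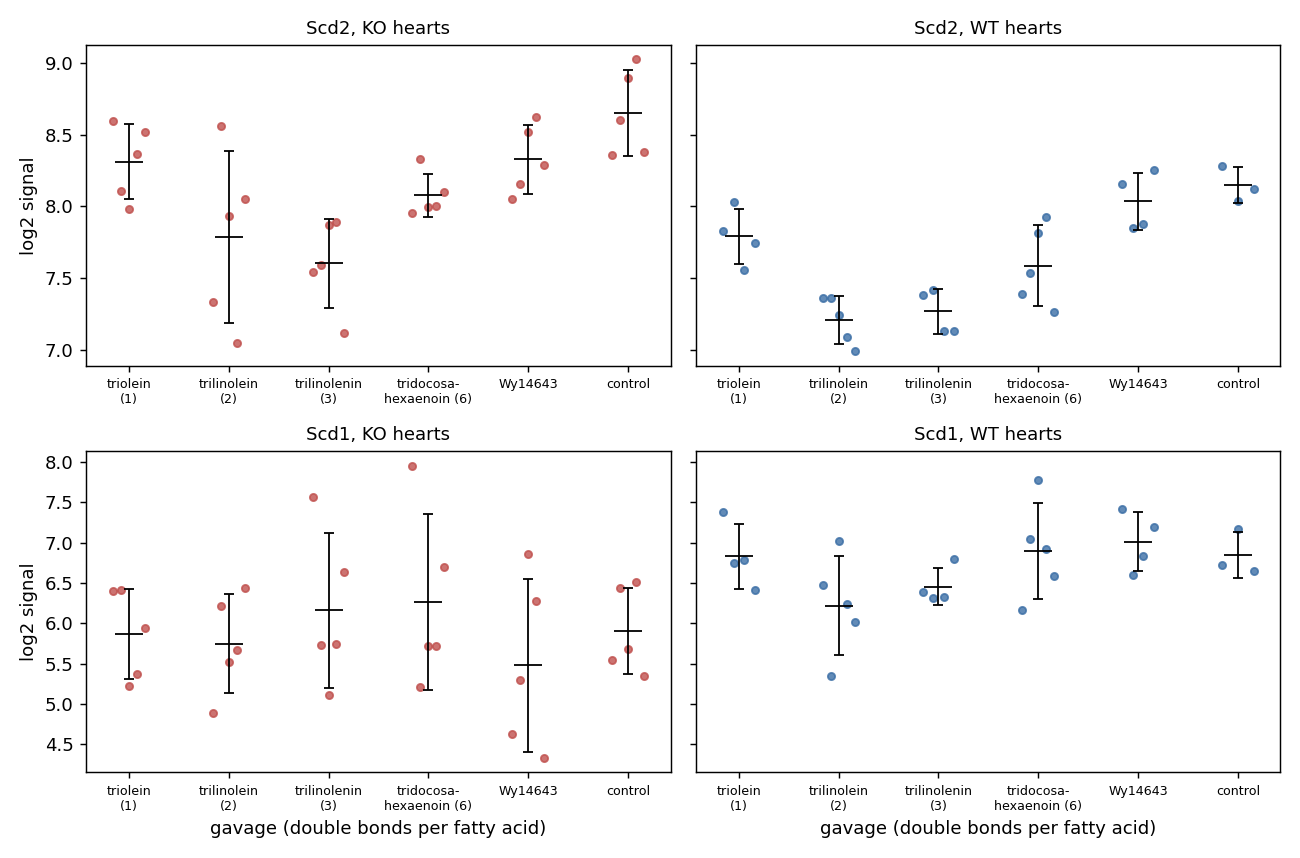
Log2 signal of Scd2 (upper panels) and Scd1 (lower panels) in each KO heart (left, red) and WT heart (right, blue) by gavage, with oils ordered by double bonds, then Wy14643 and control. Bars give the group mean ± SD. Scd2 is lowest after trilinolein and trilinolenin in both genotypes, while Scd1 spreads widely within groups.

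A second bright probe set of Scd2, over the minimum in 30 of 55 arrays, gave changes in the same direction with wider errors. For KO hearts it gave −1.33 ± 0.30 after trilinolenin (adjusted p = 0.00239) and −0.96 ± 0.30 after trilinolein (adjusted p = 0.0618). For WT hearts it gave −0.95 ± 0.36 and −1.07 ± 0.35 for the same oils (adjusted p = 0.152 and 0.126), so 1 of the 4 calls was kept by this probe set. The remaining Scd2 probe set was under the minimum in all arrays. Scd1 and Scd2 are close paralogs on chromosome 19, and cross-hybridisation between their probe sets was not tested.

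Averaged over both genotypes, a comparison added after the data were seen, Scd2 fell by 0.90 ± 0.14 on the log2 scale after trilinolein (adjusted p = 1.77e-05), by 0.96 ± 0.14 after trilinolenin (adjusted p = 3.7e-06) and by 0.57 ± 0.14 after tridocosahexaenoin (adjusted p = 0.00366). These 3 calls held when any array was left out. The triolein change of −0.35 ± 0.14 was not called (adjusted p = 0.208). The background in these pooled comparisons was 0.85% of genes called for triolein, 9.06% for trilinolein, 18.2% for trilinolenin, 11.4% for tridocosahexaenoin and 0.303% for Wy14643. These comparisons share their control hearts.

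The oils were then set against each other, as the mean of the differences in KO and WT hearts, in 6 pairs. Scd2 was lower after trilinolein than after triolein, by −0.55 ± 0.13 (adjusted p = 0.0129), and lower after trilinolenin than after triolein, by −0.62 ± 0.13 (adjusted p = 0.00321). In KO hearts alone these differences were −0.53 ± 0.18 and −0.71 ± 0.18, and in WT hearts alone −0.58 ± 0.19 and −0.52 ± 0.20. Of all tested genes, 1.92% were called for trilinolein against triolein and 6.05% for trilinolenin against triolein. Without WT triolein replicate 2 the trilinolein difference was −0.51 with an adjusted p of 0.0527. With the probe sets of each gene averaged that difference was −0.36 (adjusted p = 0.174). In a fit of only the groups compared its adjusted p was 0.0731.

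Scd2 after trilinolenin and after trilinolein differed by −0.06 (95% interval −0.32 to 0.20), a pair in which limma called 0% of genes and 445 had an unadjusted p under 0.05. Tridocosahexaenoin gave higher Scd2 than trilinolenin by 0.40 (0.14 to 0.66, adjusted p = 0.0858) and than trilinolein by 0.33 (0.08 to 0.58, adjusted p = 0.133), and neither was called. Against triolein the tridocosahexaenoin difference was −0.22 (−0.48 to 0.04, adjusted p = 0.516). The shares of genes called in these pairs were 3.01%, 3.48% and 0.789%. Without KO trilinolein replicate 2, the difference between tridocosahexaenoin and trilinolein was 0.43 with an adjusted p of 0.0374. In WT hearts the trilinolein mean of 7.21 was the lowest of the 4 oils, and in KO hearts the trilinolenin mean of 7.60 was.

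Slopes against the number of double bonds were fitted too. Over the 3 oils with 18 carbons in the chain, Scd2 fell by 0.31 ± 0.07 per double bond in both genotypes together (adjusted p = 0.00321), which is the trilinolenin and triolein difference divided by 2 and not separate evidence. It fell by 0.35 ± 0.09 per double bond in KO hearts (adjusted p = 0.033) and had a slope of −0.26 ± 0.10 in WT hearts (adjusted p = 0.216). Within each genotype the slope is likewise the trilinolenin and triolein difference divided by 2, with no weight on trilinolein. The KO call was lost on leaving out any of 7 of the 10 arrays, namely KO triolein replicate 1, 2, 4 or 5 and KO trilinolenin replicate 1, 2 or 5, with adjusted p up to 0.147 and slopes of −0.40 to −0.29. These slopes had backgrounds of 6.05%, 1.01% and 0.522%. Over all 4 oils the Scd2 slope was −0.01 ± 0.02 in both genotypes together, −0.01 ± 0.03 in KO hearts and 0.00 ± 0.03 in WT hearts, and no member was called. The 4-oil slopes called 1.55%, 0.0121% and 1.18% of genes in the same order, and 0% for the difference of slopes between KO and WT hearts, where 415 genes had an unadjusted p under 0.05.

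The response of Scd2 to the oils was not called as different between genotypes. The KO change minus the WT change was 0.02 (95% interval −0.54 to 0.58) for triolein, 0.07 (−0.47 to 0.61) for trilinolein, −0.17 (−0.73 to 0.39) for trilinolenin and −0.01 (−0.56 to 0.53) for tridocosahexaenoin. With Wy14643 it was −0.21 (−0.77 to 0.35). No member was called in these 5 comparisons, in which limma called 0% of genes and 399, 301, 383, 255 and 362 genes had an unadjusted p under 0.05.

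Scd2 was also higher in KO hearts than in WT hearts. The control signals given above did not overlap between genotypes, with all 5 KO controls above the 3 WT controls. The log2 difference was 0.50 ± 0.20 for control (adjusted p = 0.223, 3.62% of genes called), 0.52 ± 0.19 for triolein (adjusted p = 0.0813, 7.93% called) and 0.57 ± 0.18 for trilinolein (adjusted p = 0.0281, 9.63% called). The trilinolein call was lost without KO trilinolein replicate 2 (0.38, adjusted p = 0.161), replicate 3 (adjusted p = 0.065) or replicate 5 (adjusted p = 0.0885), or without WT trilinolein replicate 4 (adjusted p = 0.0637) or 5 (adjusted p = 0.0782). It was 0.34 ± 0.19 for trilinolenin, 0.49 ± 0.18 for tridocosahexaenoin and 0.29 ± 0.19 for Wy14643, none of them called. Over the mean of the 6 gavages, added after the data were seen, the difference was 0.45 ± 0.08 (adjusted p = 3.79e-06). In that mean 39% of all tested genes were called, so a call there is common. The other Scd2 probe set gave 0.54 ± 0.13 for the same mean (adjusted p = 0.000769). Cell type markers were called in that mean too. The nerve markers Mbp and Cnp were higher in KO hearts, by 0.42 ± 0.10 and 0.28 ± 0.05. Of the macrophage markers, Cd68, Csf1r, Cd163 and Mrc1 were higher, by 0.16 to 0.34, and Lyz2 was lower. The fibroblast markers Pdgfra, Dcn and Lum were lower. Kdr was higher by 0.66 ± 0.09, while Flt1, Tek and Pecam1 were lower. The part of these markers in the Scd2 difference was not tested.

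Ordered by mean, the 12 groups ran from KO control at 8.65 ± 0.30 to WT trilinolein at 7.21 ± 0.17 (SD, n = 5 each). Of the 11 steps between neighbouring groups, 2 were wider than the within-group SD of 0.29: KO control above KO Wy14643 by 0.32, and WT tridocosahexaenoin above WT trilinolenin by 0.32. All other neighbours lay within that spread.

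**Figure D2:**
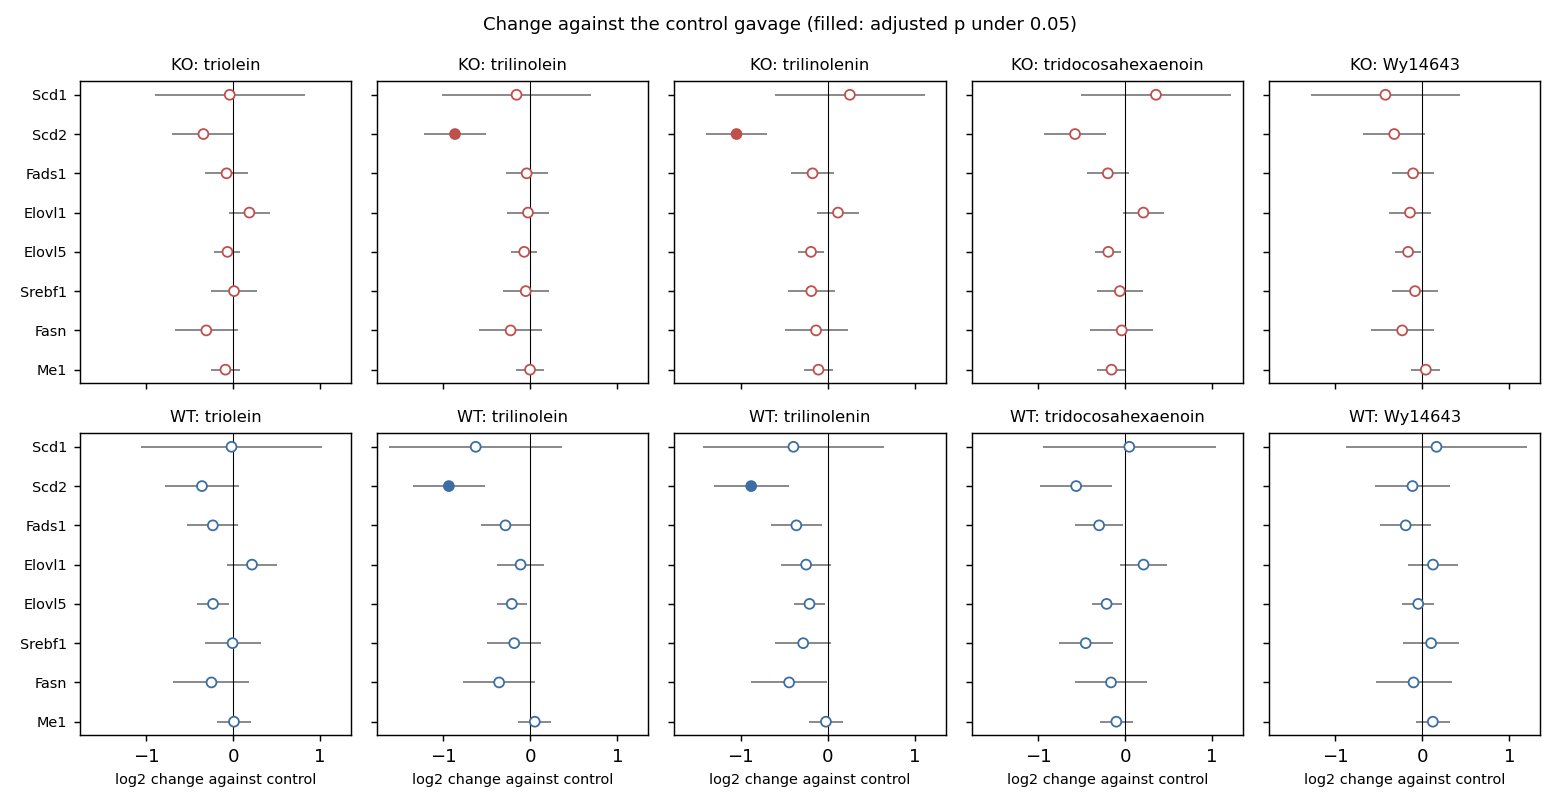
Log2 change of the 8 tested members after each gavage against control in KO hearts (upper row) and WT hearts (lower row). Points are fitted changes, lines are 95% intervals, and filled points have an adjusted p under 0.05. Scd2 is filled after trilinolein and trilinolenin in both rows, and no other point is filled.

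Scd1, the desaturase that dominates in liver and fat, was the most variable member, with a within-group SD of 0.70 on the log2 scale against 0.29 for Scd2. No change of Scd1 against control was called for any oil or the agonist, and the 95% interval for trilinolein in WT hearts ran from −1.62 to 0.37. It was lower in KO hearts after Wy14643, where it read 4.63, 5.30, 6.86, 6.27 and 4.33 in KO hearts, against 7.41, 6.599, 6.83 and 7.20 in WT hearts. A single KO heart overlapped the WT range. The log2 difference was −1.53 ± 0.45 (adjusted p = 0.0223, 9.27% of genes called), and it lost its call on leaving out 1 of 4 arrays. The adjusted p was 0.0731 without KO Wy14643 replicate 1, 0.0853 without KO replicate 5, 0.0817 without WT Wy14643 replicate 1 and 0.0607 without WT replicate 4. In a fit of those KO and WT hearts alone it was 0.0751.

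In control hearts Scd1 read 5.55, 6.44, 5.68, 6.51 and 5.34 in KO mice, against 6.72, 7.17 and 6.65 in WT mice. The log2 difference of −0.94 ± 0.49 was not called (adjusted p = 0.419). The groups did not overlap, and how many tested genes separate in this way was not counted. After the 4 oils the difference lay between −0.96 and −0.29 and was not called. Over the mean of 6 gavages Scd1 was lower in KO hearts by −0.81 ± 0.18 (adjusted p = 0.000422), a call that held when any array was left out. The KO signals ran from 4.33 to 7.95 with a median of 5.72, and the WT signals from 5.34 to 7.78 with a median of 6.72. Thus Scd1 and Scd2 differed between the genotypes in opposite directions. None of the 11 steps between neighbouring group means of Scd1 was wider than its SD, from 7.01 for WT Wy14643 to 5.48 for KO Wy14643.

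Scd1 is also abundant in adipocytes, so fat markers were read beside it. Of 13 adipocyte markers 11 had a probe set and 5 were bright, while Adipoq, Cidec, Lep, Retn, Ucp1 and Pck1 stayed under the minimum. The summed linear signal of the 11, which the brightest of them dominate, ranged from 23960 to 30860 in KO hearts and from 20880 to 25400 in WT hearts. These ranges over all gavages overlap. Under each of the 6 gavages, however, the KO hearts lay wholly above the WT hearts. In control hearts the sums were 23960 to 24970 against 21900 to 22520. The bright markers did not move one way over the mean of 6 gavages. Fabp4 was higher in KO hearts by 0.45 ± 0.03 (adjusted p = 5.69e-18), Lipe was lower by −0.66 ± 0.06 (adjusted p = 1.38e-12) and Cidea was lower by −0.77 ± 0.05 (adjusted p = 3.54e-18), while Car3 and Lpl were not called. Within groups, the deviations of Scd1 from its group mean went with those of the marker Car3 (r = 0.464, rho = 0.497, adjusted p = 0.0124 and 0.00528 by permutation over 44 relations, 55 arrays). That r was 0.47 without the 2 arrays farthest in Scd1, 0.35 in KO hearts and 0.784 in WT hearts. With Adipoq the r of Scd1 was 0.393 and the rho 0.416 (adjusted permutation p = 0.142 and 0.0556). The part of fat cells in the Scd1 difference was not tested.

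Fads1, a desaturase of the polyunsaturated series, was dim, with signals of 4.31 to 5.44 beside a minimum of 4.32, and exceeded that minimum in 54 of 55 arrays. All 6 KO group means, 4.51 to 4.71, lay below all 6 WT group means, 4.78 to 5.14. In control hearts it read 4.68, 4.66, 5.03, 4.54 and 4.64 in KO mice, against 5.04, 5.44 and 4.96 in WT mice, with 1 KO heart inside the WT range. The log2 difference of −0.43 ± 0.14 was not called (adjusted p = 0.0745). It was called without KO control replicate 3 (−0.51, adjusted p = 0.0275), with repeated quantile normalisation (adjusted p = 0.0386) and with array weights (adjusted p = 0.0313). Over the mean of 6 gavages Fads1 was lower in KO hearts by −0.30 ± 0.05 (adjusted p = 5.35e-06), and this held when any array was left out.

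Against control, Fads1 changed by −0.17 ± 0.12 in KO hearts and by −0.36 ± 0.15 in WT hearts after trilinolenin, neither called. Averaged over both genotypes the change was −0.27 ± 0.09 (adjusted p = 0.041). That call was lost on leaving out any of 6 arrays: KO control replicate 3, KO trilinolenin replicate 3 or 5, WT trilinolenin replicate 3 or 4, or WT control replicate 2, which gave −0.19 with an adjusted p of 0.206. Fads2, the desaturase that acts at the entry of the same series, read 2.13 to 3.06 in KO hearts and 2.29 to 3.19 in WT hearts. These signals are under the brightness minimum, so no change was drawn from them. All 3 Fads2 probe sets were under it.

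Elovl5, an elongase that extends polyunsaturated chains, had a within-group SD of 0.12. Averaged over both genotypes, Elovl5 fell by 0.20 ± 0.06 after trilinolenin (adjusted p = 0.0119) and by 0.20 ± 0.06 after tridocosahexaenoin (adjusted p = 0.0139), a linear change of 1.15-fold in each. The trilinolenin signals were 8.23, 8.26, 8.28, 8.34 and 7.99 in KO hearts against 8.36, 8.54, 8.44, 8.30 and 8.43 after control. In WT hearts they were 8.36, 8.26, 8.31 and 8.27 against 8.42, 8.57 and 8.53. The WT groups did not overlap and 1 trilinolenin heart in KO lay within its control range. The tridocosahexaenoin call was lost without WT control replicate 2 (−0.19, adjusted p = 0.0562) and in a fit of only the groups compared (adjusted p = 0.0661). The trilinolenin call was lost with the probe sets of each gene averaged (−0.15, adjusted p = 0.0529). A second bright probe set kept neither call and gave −0.11 ± 0.07 for trilinolenin (adjusted p = 0.338).

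Elovl1, which extends saturated and monounsaturated chains, had 2 calls, and each was lost when single arrays were left out. It was higher in KO hearts than in WT hearts after trilinolenin, at 6.54, 6.65, 6.42, 6.50 and 6.53 in KO hearts against 6.19, 6.21, 6.43 and 5.65 in WT hearts, a log2 difference of 0.41 ± 0.12 (adjusted p = 0.0282, 9.54% of genes called). WT trilinolenin replicate 4 was the low heart, and without it the difference was 0.25 with an adjusted p of 0.248. Without KO trilinolenin replicate 1 or 2 the adjusted p was 0.0517 or 0.0712. Elovl1 was also higher after tridocosahexaenoin than after trilinolein, by 0.28 ± 0.08 (adjusted p = 0.0457), a call lost on leaving out any of 13 of 20 arrays, with differences of 0.25 to 0.30. Other oil comparisons of Elovl1 were not among these 2 calls but passed under other settings or with single arrays left out. Trilinolenin against triolein gave −0.27 with the filter at 100 (adjusted p = 0.0458). With the probe sets of each gene averaged, tridocosahexaenoin gave 0.22 against trilinolenin (adjusted p = 0.00643). Against control in both genotypes together it gave 0.18 (adjusted p = 0.0204). For the KO and WT difference after trilinolenin, the other 2 bright probe sets of Elovl1 gave 0.17 ± 0.14 and 0.07 ± 0.12, neither called. The x suffix in the name of the main Elovl1 probe set marks probes that may match other transcripts. Elovl6, which lengthens palmitate, read 1.90 to 2.72 in KO hearts and 1.69 to 2.43 in WT hearts and was under the minimum throughout.

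Srebf1 was read by 1 probe set for its transcripts together, so the isoforms cannot be told apart. After Wy14643 it read 5.62, 5.78, 6.19, 6.15 and 5.93 in KO hearts against 6.19, 6.26, 6.49 and 6.58 in WT hearts. A single KO heart overlapped the WT range, and the log2 difference was −0.44 ± 0.14 (adjusted p = 0.0358). It was not called without KO Wy14643 replicate 1 (adjusted p = 0.115), 2 (adjusted p = 0.0916) or 5 (adjusted p = 0.0564), or without WT Wy14643 replicate 3 (adjusted p = 0.104) or 4 (−0.38, adjusted p = 0.133). Over the mean of 6 gavages Srebf1 was lower in KO hearts by −0.18 ± 0.06 (adjusted p = 0.00943). Tridocosahexaenoin gave 5.66, 5.85, 6.03, 5.94 and 5.64 in WT hearts against 6.26, 6.36 and 6.204 after control, with no overlap. The change of −0.45 ± 0.15 was not called (adjusted p = 0.119). With array weights it was −0.47 with an adjusted p of 0.0449, and the average over both genotypes was −0.28 with an adjusted p of 0.0477. In KO hearts that change was −0.06 ± 0.13, and the difference of 0.39 between the genotypes (95% interval −0.01 to 0.80) was not called.

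Fasn, the synthase of palmitate, was called in no comparison of the fit over all 55 arrays. After trilinolenin it read 5.42, 5.01, 4.74, 5.39 and 4.95 in KO hearts against 5.17, 5.25, 5.21, 5.70 and 4.84 after control, and the groups overlapped. In WT hearts it read 5.01, 4.87, 4.82 and 4.83 against 5.24, 5.43 and 5.31, without overlap and with a change of −0.44 ± 0.22 (adjusted p = 0.288). In a fit of those WT hearts alone the adjusted p was 0.0428. Its mean difference between KO and WT hearts was −0.03 (95% interval −0.18 to 0.13).

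Me1 encodes cytosolic malic enzyme (Entrez Gene 17436). Its signal ran from 8.37 to 8.96 in the 30 KO hearts, with a median of 8.79, and from 9.47 to 9.94 in the 25 WT hearts, with a median of 9.69. In control hearts it read 8.83, 8.92, 8.92, 8.80 and 8.62 in KO mice, against 9.63, 9.84 and 9.65 in WT mice. No KO heart overlapped the WT range under any gavage. The log2 difference was −0.89 ± 0.09 for control, −0.99 ± 0.09 for triolein, −0.94 ± 0.08 for trilinolein, −0.98 ± 0.09 for trilinolenin, −0.95 ± 0.08 for tridocosahexaenoin and −0.97 ± 0.09 for Wy14643. The adjusted p lay between 8.44e-13 and 8.04e-10, and 9.57% of genes were called between the genotypes after tridocosahexaenoin. A second probe set of Me1 gave −0.99 ± 0.04 for the mean of 6 gavages, beside −0.95 ± 0.04 for the main one.

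No change of Me1 was called within a genotype. Its changes against control lay between −0.16 and 0.04 in KO hearts and between −0.10 and 0.12 in WT hearts, none of them called, while its within-group SD was 0.13. After Wy14643 in WT hearts it read 9.89, 9.85, 9.87 and 9.69 against 9.63, 9.84 and 9.65 after control, overlapping groups with a change of 0.12 (95% interval −0.08 to 0.32). Of the 11 steps between its ordered group means, the 0.75 between WT tridocosahexaenoin and KO Wy14643 was the one wider than the SD.

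**Figure D3:**
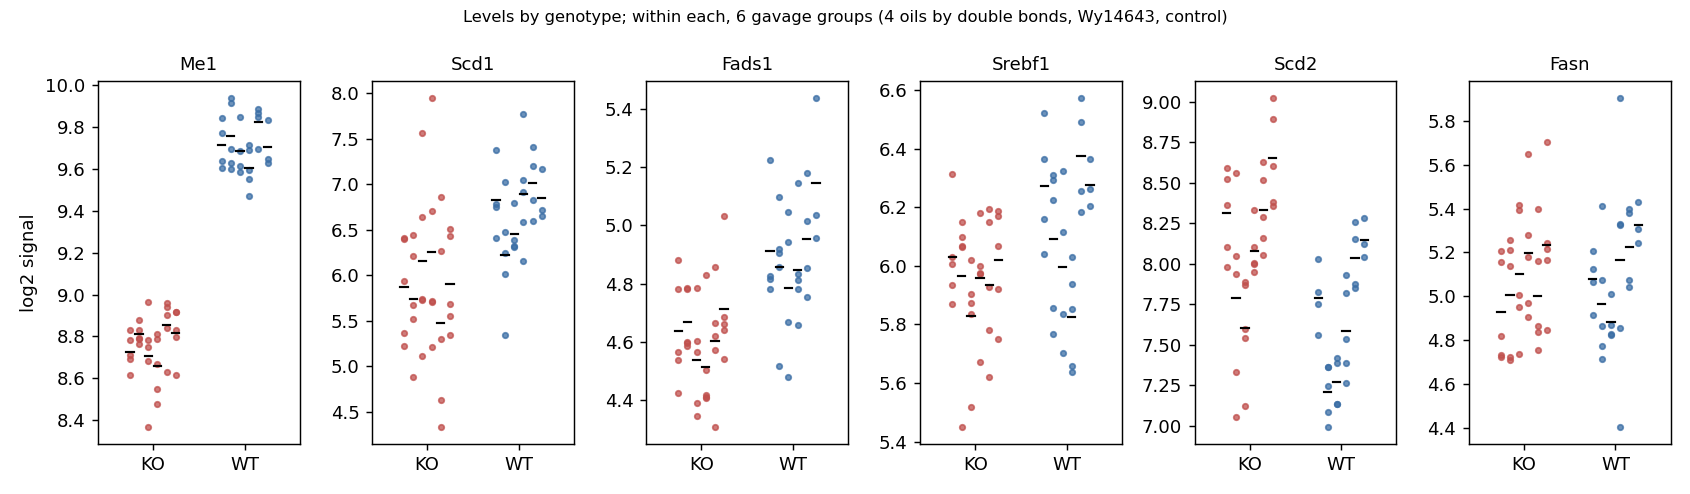
Log2 signal of Me1, Scd1, Fads1, Srebf1, Scd2 and Fasn in each KO heart (left of each panel, red) and WT heart (right, blue). Within a genotype the 6 columns are triolein, trilinolein, trilinolenin, tridocosahexaenoin, Wy14643 and control, and short lines are group means. Me1 separates the genotypes without overlap, while the other 5 overlap.

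Over the mean of 6 gavages, 5 of the 8 tested members were called between KO and WT hearts, with Scd2 higher and Scd1, Fads1, Srebf1 and Me1 lower in KO hearts. The share of all tested genes called there was 39%, so the count by itself says little about these genes. Elovl1 differed by 0.07 (95% interval −0.04 to 0.17), Elovl5 by −0.06 (−0.12 to 0.01) and Fasn by −0.03. The median change of the 8 members after trilinolenin was −0.15 in KO hearts, beside −0.02 over all tested genes. In WT hearts it was −0.32, beside −0.03. A median fall of similar size was seen after Wy14643 in KO hearts, where no member was called, so it was not particular to trilinolenin.

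Promoter sequence was available for 7 of the 10 members in the RefSeq table of build GRCm38.p6. Scd1, Scd2 and Fads1 are named only. The windows shown are those of the first of 2 annotated Me1 starts, of Elovl5 and of Fasn. Me1 separated the genotypes, and Elovl5 fell after trilinolenin and tridocosahexaenoin in the averages over both genotypes. Fasn tracked Scd1 and Scd2 between hearts. Each window is the 250 bases before the annotated start, written 5′ to 3′ on the strand of the gene, and capitals mark motif letters. The Me1 window is chr9:86695915-86696164 on the minus strand, the Elovl5 window chr9:77917115-77917364 on the plus strand and the Fasn window chr11:120824548-120824797 on the minus strand.
Me1: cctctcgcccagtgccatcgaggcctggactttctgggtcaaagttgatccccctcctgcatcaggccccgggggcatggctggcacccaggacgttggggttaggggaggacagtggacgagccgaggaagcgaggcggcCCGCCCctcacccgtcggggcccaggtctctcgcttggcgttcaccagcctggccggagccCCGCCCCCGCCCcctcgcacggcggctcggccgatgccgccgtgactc
Elovl5: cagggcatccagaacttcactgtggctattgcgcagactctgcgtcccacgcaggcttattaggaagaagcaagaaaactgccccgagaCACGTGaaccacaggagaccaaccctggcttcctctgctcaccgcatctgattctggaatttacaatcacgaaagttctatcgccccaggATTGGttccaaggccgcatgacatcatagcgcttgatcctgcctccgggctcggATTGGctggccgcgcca
Fasn: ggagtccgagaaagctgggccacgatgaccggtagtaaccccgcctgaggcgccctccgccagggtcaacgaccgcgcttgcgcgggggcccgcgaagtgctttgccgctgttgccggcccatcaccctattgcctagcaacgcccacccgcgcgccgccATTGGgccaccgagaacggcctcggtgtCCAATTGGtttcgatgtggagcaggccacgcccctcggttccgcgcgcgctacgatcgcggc

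The motifs searched on both strands were the core of the sterol regulatory element, TCACNCCAC, the NF-Y box CCAAT, the Sp1 box GGGCGG, the E-box CACGTG and the nuclear receptor hexamer AGGTCA. Of 32851 promoters of the same length, 1.05% held the first, 33.85% the NF-Y box, 32.74% the Sp1 box, 6.02% the E-box and 14.02% the hexamer. The Me1 window held 3 Sp1 boxes, all on the opposite strand and 2 of them adjacent. The window of the other Me1 start held 1 NF-Y box and none of the other motifs. The Elovl5 window held an E-box and 2 NF-Y boxes on the opposite strand. The Fasn window held 3 NF-Y boxes, and 2 of these overlap on opposite strands. None of these 3 windows held the sterol core or the hexamer in these letters. These matches describe the letters and are not binding sites.

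Between hearts of the same group, the members did not all move together. Scd1 and Fasn deviated from their group means in the same direction (Pearson r = 0.64, Spearman rho = 0.662, 55 arrays). The permutation p of 1e-05 within groups is the smallest that 100000 permutations can give, and it was 0.00044 after adjustment over 44 relations. Without the 2 arrays farthest in Scd1 the r was 0.596, and it was 0.666 in KO hearts and 0.687 in WT hearts. Scd2 went with Fasn (r = 0.554, rho = 0.605, adjusted permutation p = 0.00161 and 0.00154) and with Srebf1 (r = 0.556, rho = 0.564, adjusted permutation p = 0.00161 and 0.0011). Without the 2 farthest arrays these were 0.574 and 0.473, and the r in KO and in WT hearts was 0.543 and 0.648 for Fasn and 0.51 and 0.706 for Srebf1. Adipoq and Car3 were the fat markers tested this way, and Scd1 went with Car3 and Fasn with both. Over the 11 adipocyte markers on the array the direction was mixed. The r ran from −0.346 (Lep) to 0.512 (Car3) for Fasn, and from −0.2 (Lpl) to 0.464 (Car3) for Scd1. For Scd2 it ran from −0.443 (Lep) to 0.131 (Adipoq). Markers other than Adipoq and Car3 had no permutation p and are not among the 44 relations. Beside the Scd1 and Car3 relation above, Fasn had an r of 0.512 with Car3 (rho = 0.58, adjusted permutation p = 0.0131 and 0.00154) and of 0.477 with Adipoq (rho = 0.521, adjusted permutation p = 0.0198 and 0.00528), a marker under the minimum. Without the 2 farthest arrays these were 0.476 and 0.432. In KO hearts they were 0.382 and 0.396, and in WT hearts 0.675 and 0.617. The part of fat cells in the relation of Scd1 and Fasn was not tested. Scd1 and Scd2 themselves had an r of 0.214 (adjusted permutation p = 0.497).

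**Figure D4:**
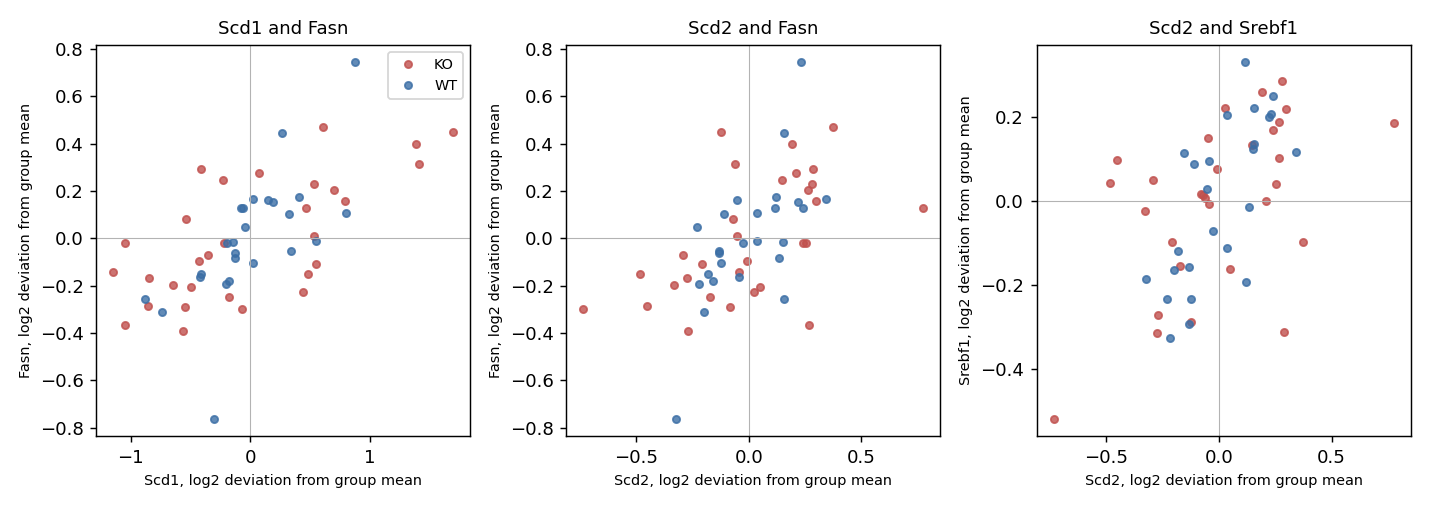
Deviation of each heart from its group mean on the log2 scale, for Scd1 and Fasn, Scd2 and Fasn, and Scd2 and Srebf1. Points are KO hearts (red) and WT hearts (blue). The correlations are 0.64, 0.554 and 0.556 over 55 arrays.

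Other genes of fatty acid synthesis and desaturation were counted from a list of 44, of which 41 were on the array and 29 were tested. In KO hearts 1 of the 29 was called after triolein (1.15% of all tested genes), 2 after trilinolein (4.32%), 4 after trilinolenin (11.9%), 2 after tridocosahexaenoin (3.54%) and 0 after Wy14643 (0.0728%). In WT hearts 1 was called after trilinolenin (3.41%) and 0 after each of the other 4 gavages, where the share of all tested genes lay between 0.0607% and 1.86%. Mylip, a ubiquitin ligase for lipoprotein receptors and a target of the sterol-sensing receptor LXR, rose in KO hearts by 0.78 ± 0.16 after trilinolein (adjusted p = 0.00294), by 0.97 ± 0.16 after trilinolenin (adjusted p = 5.54e-05) and by 0.67 ± 0.16 after tridocosahexaenoin (adjusted p = 0.0132). Insig1, which holds SREBP precursors in the endoplasmic reticulum, rose in KO hearts by 0.52 ± 0.13 after triolein (adjusted p = 0.0374) and by 0.52 ± 0.13 after trilinolenin (adjusted p = 0.00679). Hacd1, a dehydratase of the elongation cycle, fell in KO hearts by 0.38 ± 0.11 after trilinolein and by 0.45 ± 0.11 after trilinolenin. In WT hearts the single call was Gpam, which begins glycerolipid synthesis, at 0.29 ± 0.09 after trilinolenin (adjusted p = 0.0457). Gpam fell in KO hearts by 0.25 ± 0.07 after tridocosahexaenoin (adjusted p = 0.0351). Averaged over both genotypes it was lower after tridocosahexaenoin than after triolein, trilinolein and trilinolenin, by −0.25, −0.33 and −0.32, and its slope over the 4 oils in WT hearts was −0.08 ± 0.01 (adjusted p = 0.00199).

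Between genotypes, 3 of the 29 were called after triolein (7.93% of all tested genes), 8 after trilinolein (9.63%), 5 after trilinolenin (9.54%), 5 after tridocosahexaenoin (9.57%), 5 after Wy14643 (9.27%) and 4 in control hearts (3.62%). Gpam was lower in KO hearts under all 6 gavages, with log2 differences of −1.68 to −1.28. Lpcat3, which inserts polyunsaturated chains into phospholipids, was lower under all 6 too, by −1.43 to −0.74. Insig1 was lower in KO hearts after control (−0.56 ± 0.15, adjusted p = 0.0218) and after tridocosahexaenoin (−0.87 ± 0.13, adjusted p = 3.87e-06). Tecr, a reductase of the elongation cycle, was higher in KO control hearts by 0.27 ± 0.07 (adjusted p = 0.0287). Over the mean of 6 gavages, 9 of the 29 were higher and 8 lower in KO hearts, beside 39% of all tested genes called.

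The genes with the most similar pattern over the 12 group means were taken by Pearson correlation among all tested genes. For Scd2 they were Gja1 (0.968), Zfp597 (0.965) and Mfhas1 (0.955). For Me1 they were Plbd1, Gna12 and Paqr9 (0.996 each), and for Scd1 Pdgfra (0.942), Camsap2 (0.928) and Cald1 (0.921). Fads1 was nearest to Oxsr1 (0.965), Srebf1 to Zdhhc17 (0.942), Elovl1 to 2310057M21Rik (0.901), Elovl5 to Nid2 (0.889) and Fasn to Rad17 (0.891). These correlations share the genotype difference and the same 55 arrays and are descriptions of 12 means.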

How the data were processed

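Hearts of 12 genotype-by-gavage groups were measured on 55 Affymetrix arrays. The authors deposited log2 values for each probe set, and GCRMA 2.2.0 is the tool named in the submitters' processing notes. GCRMA subtracts background, equalises the arrays by quantiles and joins probes into one value, which can hide a shift shared by all genes. The values ranged from 0.22 to 14.87 with array medians of 2.55 to 2.61.

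Probe sets were named from the platform annotation: 34958 of 45101 carried 1 symbol, 932 several and 9211 none. Probe sets of the last 2 kinds were left out. By Entrez identifier, 34754 matched the RefSeq gene table. Genes entered the tests where 3 or more arrays had a linear signal above 20 (8238 of 18194).

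In R 4.3.3, limma 3.58.1 fitted 12 group means with a common variance (43 residual and 3.253 prior degrees of freedom), and Benjamini-Hochberg adjustment covered the tested genes within each of 40 comparisons. The fit was tested on simulated data. Correlations of within-group deviations were permuted within groups 100000 times. Figures used Python 3.11.15 and matplotlib 3.10.9.

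The named genes were all 10 members, Ppara, up to 4 called genes with the largest change in a comparison from a list of 44 related genes, and for each tested member the 3 genes with the most similar group means. The members and lists were chosen with earlier results of these data known. The averages over both genotypes and over 6 gavages were added after the data were seen. Alternatives tried were no filter, a filter at 100, averaging a gene's probe sets, repeated quantile normalisation, array weights, a trended and robust prior, the replicate number as a block, only the groups compared, ranks for double bonds, other probe sets, and each array left out.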

Additional observations from a re-analysis of the deposited data

Results flagged for a closer look

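Single hearts stood far from the others of their group in 8 of 110 groups of 4 or 5 arrays examined over the 10 members, and chance flags about 1 in 20 such groups. Scd1 read 6.792 in WT trilinolenin replicate 4, with the other 3 at 6.309 to 6.388. Fads1 read 5.224 in WT triolein replicate 3, with the others at 4.781 to 4.827, and 4.83 in KO tridocosahexaenoin replicate 2, with the others at 4.407 to 4.504. Srebf1 read 5.449 in KO trilinolein replicate 4, below the others at 6.063 to 6.15.

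The other 4 such hearts were all in Fads2, which was under the brightness minimum in all arrays. It read 3.044 in KO control replicate 2, 3.057 in KO trilinolenin replicate 3, 2.705 in KO triolein replicate 5 and, on the low side, 2.125 in KO tridocosahexaenoin replicate 5.

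Elovl6 moved in opposite directions after tridocosahexaenoin, by −0.07 in KO hearts and by 0.15 in WT hearts, a difference of −0.227. Every KO heart lay below the mean of its controls and every WT heart above it. In a fit of all genes without the filter this difference had a 95% interval of −0.57 to 0.12 and an adjusted p of 0.999, and the signals were under the brightness minimum.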

How the results depend on the processing

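No called member changed direction under any setting run. Member calls numbered 2 in WT and 2 in KO hearts against control, 10 between genotypes, 0 for differences in response, 3 between oils, 2 for slopes, 6 for the averages over both genotypes and 5 for the mean of 6 gavages. The 10 between genotypes include Me1 under each of the 6 gavages. Over all 8238 tested genes, calls numbered 548, 1733, 4082, 0, 1256, 850, 3276 and 3214 in the same order. Slopes gave 1 call without the filter, with the mean of all probe sets and in fits of only the groups compared. The mean of all probe sets left 0 calls in WT hearts. In KO hearts array weights gave 4 calls and fits of only the groups compared gave 1. The filter at 100, which removes Fads1, Srebf1 and Fasn, gave 3 for the mean of 6 gavages. Leaving out each array gave 0 to 2 calls in WT hearts, 2 to 4 in KO hearts, 8 to 12 between genotypes, 2 to 5 between oils, 1 to 3 for slopes, 4 to 7 for both genotypes and 5 to 6 for the mean. It kept 543 of 592 member calls, and 15 member tests not called otherwise passed on leaving out some array. With the replicate block, calls numbered 2, 2, 10, 0, 2, 2, 6 and 5 in the order above. Same-numbered hearts of different groups had a median correlation of 0.000354, and 62 of 281 pairs exceeded 0.1. For hearts with different numbers the median was −0.00879, and 208 of 1103 pairs exceeded 0.1. For same-numbered KO and WT hearts of the same gavage it was 0.0566, and 9 of 25 pairs did so. Whether the numbers pair hearts within a gavage was not tested. Over all genes, calls against control in WT hearts numbered 548 in all, 288 without the filter, 1231 with array weights and 227 from only the groups compared. The 3 WT controls and signals near the minimum (Fads1, Fasn) limit what can be resolved, and the causes of the changed calls were not tested.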
